A study of Mus musculus with 48 samples.

Results

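The nuclear RNA of mouse embryonic stem cells was compared between 60 and 30 min after transcription was blocked, to follow how transcripts leave the nucleus, by export or by decay, once no new ones are started. The comparison rests on the 6 nuclear libraries taken at these times, 3 at each, out of 48 libraries in the series, and on the 15502 genes listed in all 6 of them, out of 23862 genes listed in any library. The cells were E14TG2a, an established line of mouse embryonic stem cells, grown on gelatin in 2i medium (the inhibitors CHIR99021 and PD0325901) with LIF and serum. Both groups received 1 µM flavopiridol, for 30 min in one and 60 min in the other, and were harvested in cold buffer with cycloheximide, which holds ribosomes on mRNA. Digitonin released the cytosol, a stronger detergent then released the membranes, and the remaining nuclei gave the polyadenylated RNA sequenced here. The 3 replicates of a time were passaged independently, but all come from 1 line, and the libraries at 0 min were not analysed here. The values are ratios of a gene's nuclear level to that before the drug (0 min), so that a ratio of 1, or a log2 ratio of 0, stands for no change. Whether each library was set against the 0 min library of its own replicate or against a mean is not given in the sources used here. The ratios carry no expression level and the read depth is unknown, so that no counting error can be given for a single gene.

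Flavopiridol inhibits CDK9, the kinase of P-TEFb that releases paused RNA polymerase II into elongation. Polymerases that had already passed the pause carry on to the end of the gene, and in a long gene the last of them need much longer to arrive there than in a short one. A finished transcript is cleaved, polyadenylated, spliced, and then exported through the nuclear pore or degraded in the nucleus by the exosome and its cofactors. The level of polyadenylated nuclear RNA after the block is therefore the balance of late completion, export and decay, and the ratio alone cannot tell export and decay apart.

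One library stood apart, and it bears on every result. At 30 min the median log2 ratio over the 15502 genes was -0.81 in replicate 1, -0.08 in replicate 2 and -0.29 in replicate 3, whereas at 60 min it was -0.76, -0.82 and -0.60. Replicate 1 at 30 min thus lay at the level of the 60 min libraries (below it is called the low library). Across genes its log2 ratios correlated with those of the other 30 min libraries at r = 0.53 and 0.50 and with those of the 60 min libraries at r = 0.58 to 0.64, while the other 30 min libraries correlated with each other at r = 0.69 and the 60 min libraries at r = 0.78 to 0.82. The shift was not the same for every gene. Srrm2, which encodes a large scaffold protein of nuclear speckles, had a ratio of 0.0807 in the low library and of 1.57 and 1.85 in its fellow replicates. Whether the low library differs by scaling, by its time of harvest or by its nuclei was not tested. The main values are given with it and without it.

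**Figure D1:**
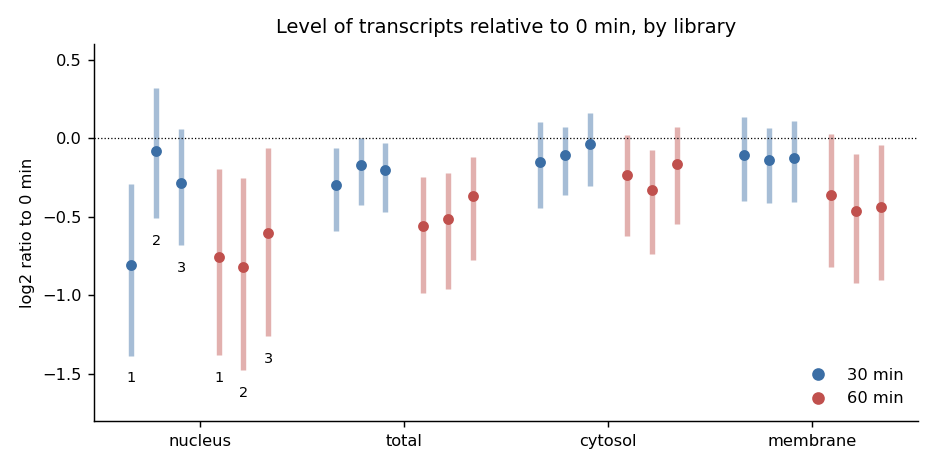
Log2 ratio to 0 min, per library, of the genes shared by the 6 libraries of each fraction. Points are library medians, bars span the middle 50% of genes, blue is 30 min and red 60 min, and digits give the replicate of the nuclear libraries. Replicate 1 of the nucleus at 30 min, with a median of -0.81, lies among the 60 min libraries, while the 30 min libraries of the other fractions lie close together.

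The markers of embryonic stem cells were present, since all 8 of 8 (among them Pou5f1, Sox2 and Nanog) were listed in all 6 libraries, against 2 of 8 markers of feeder cells or fibroblasts and 3 of 6 of primitive endoderm. The ratios give no level for any of these. Of the 13 mRNAs encoded by the mitochondrial genome, which mark mitochondria carried along with nuclei, 7 were listed in all 6 libraries, and their median log2 ratio was 0.44, 0.17 and 0.02 at 30 min and 0.07, 0.59 and 0.73 at 60 min. These times overlapped, and the part of carried-over mitochondria in the nuclear changes was not tested.

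The typical nuclear transcript was lower at 60 than at 30 min, but by less than the low library allowed to call. The mean of the library medians went from -0.39 ± 0.37 (SD, n = 3) to -0.73 ± 0.11, a difference of -0.33 with an exact permutation p of 0.3 (two-sided; 3 against 3 cannot go below 0.1). The median change of single genes was -0.31 with all 6 libraries and -0.52 without the low library. It was -0.18 when replicate 2 at 30 min was left out in its place, -0.13 without both libraries numbered 2, and -0.06 when libraries were scaled to the same total. In linear terms, 10.8% and 13.8% of genes were below a ratio of 0.5 in replicates 2 and 3 at 30 min, 40.9% in the low library, and 33.3% to 42.0% in the 60 min libraries. In these bulk samples less RNA per nucleus and fewer nuclei with that RNA cannot be told apart. The library medians differed over the same interval by -0.26 in total RNA, by -0.15 for the cytosol and by -0.30 for membranes, each with times that did not overlap (exact permutation p = 0.1, the smallest possible).

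Gene by gene, limma on the log2 ratios called 0 of 15502 genes lower (0%) and 0 higher (0%) with all 6 libraries, at a Benjamini-Hochberg adjusted p under 0.05. At an unadjusted p under 0.05, 2599 genes were lower and 139 higher, and the lowest adjusted p was 0.125. Without the low library, 1870 genes (12.1%) fell and 37 (0.239%) rose. These calls stand close to the threshold, with a lowest adjusted p of 0.031, and leaving out any further single nuclear library brought both counts to 0. When the 11 nuclear libraries of all times other than the low library were fitted together, a choice made after seeing the data, 3446 of 13343 genes (25.8%) fell and 61 (0.457%) rose. Without any model, the 3 libraries at 60 min were all below the 3 at 30 min for 3543 genes (22.9%) and all above for 265 (1.71%). The verbs "fell" and "rose" below refer to the fit without the low library unless stated otherwise, and none of these genes passed with all 6 libraries. Centring the libraries on their median as well left 0 genes in either direction, with 1968 lower and 2307 higher at an unadjusted p under 0.05. With all 6 libraries centred, 24 were called lower and 7 higher than the median gene.

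Nuclear transcripts differed by the length of their gene, more so at 60 than at 30 min. The median ratio of short genes lay lower at 60 min than in replicates 2 and 3 at 30 min and near that of the low library, while the 60 min ratio of the longest genes lay between the highest and the lowest at 30 min. Among the 6599 genes under 10 kb the median log2 ratio was -0.95, -0.21 and -0.36 at 30 min and -0.89, -0.98 and -0.78 at 60 min. Among the 770 genes over 150 kb it was -0.57, 0.23 and -0.07 at 30 min and -0.18, -0.29 and -0.10 at 60 min. In each library the longest genes were higher than the shortest, and the gap between these medians does not depend on how the library was scaled.

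This gap was larger in every 60 min library than in any 30 min library. At 30 min the longest genes exceeded the shortest by 0.38, 0.44 and 0.29 in log2 ratio, a mean of 0.37 ± 0.08 (SD, n = 3), and at 60 min by 0.71, 0.70 and 0.68, a mean of 0.70 ± 0.01. The low library was not exceptional on this measure. The mean gap was larger by 0.33 at 60 min (0.34 without the low library), and the times did not overlap (exact permutation p = 0.1, the smallest that 3 against 3 allows). In total RNA the same gap went from 0.02 ± 0.05 to -0.00084 ± 0.05, in cytosolic RNA from 0.02 ± 0.07 to 0.07 ± 0.08, and in membrane RNA from 0.05 ± 0.04 to 0.10 ± 0.05, with overlapping times in each. The nuclear gap grew by 0.35 more than that in total RNA, and by 0.28 more than those of the cytosol and of membranes (exact permutation p = 0.1 for each, the smallest possible). For this test each 60 min library was set against the 30 min library of the same replicate number, and whether these numbers pair the libraries is not known.

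**Figure D2:**
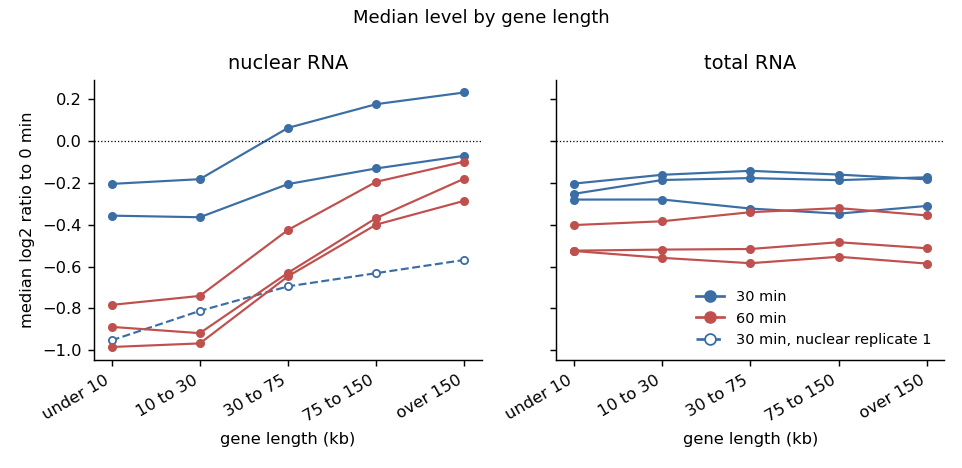
Median log2 ratio to 0 min of genes in 5 bins of gene length, from under 10 kb to over 150 kb, 1 line per library, for nuclear RNA (left) and total RNA (right). Blue is 30 min, red is 60 min and the dashed line is the low nuclear library. Nuclear lines climb with gene length, more steeply at 60 than at 30 min, while the lines of total RNA are flat.

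The bins between these ends differed in the same sense from 30 kb upwards, while the shortest pair of bins were alike. The median change of single genes, with all 6 libraries, was -0.37 under 10 kb, -0.40 from 10 to 30 kb, -0.27 from 30 to 75 kb, -0.10 from 75 to 150 kb and -0.06 over 150 kb. Of the genes in these bins 14.7%, 14.4%, 8.56%, 4.23% and 2.73% fell, against 12.1% of all genes, and the last share is 21 of 770 genes. At later times the nuclear gap widened further, to 1.23, 1.26 and 1.18 at 120 min and 1.66, 1.64 and 1.60 in the libraries titled 240 min. In the latter genes under 10 kb had a median log2 ratio of -1.95 ± 0.09 (SD over 3 libraries) and those over 150 kb one of -0.31 ± 0.12.

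Length was tied to other features of a gene, so the gap was recomputed within classes, as additions made after seeing the data. Its growth was 0.31, 0.28 and 0.31 in genes of low, middle and high GC content, 0.40 among protein-coding genes, 0.42 within 6 to 15 exons and 0.62 in genes with over 15 exons, with times that did not overlap in each. The class of over 15 exons held 38 genes under 10 kb. Within 2 to 5 exons the growth was 0.21 and the times overlapped. In total RNA it reached 0.07 in genes of low GC content, with times that did not overlap either. Exon number alone gave a smaller gradient. Genes with over 15 exons exceeded those with 2 to 5 by 0.19 ± 0.10 (SD, n = 3) at 30 min and 0.36 ± 0.01 at 60 min (exact permutation p = 0.1, the smallest possible), and here total RNA, the cytosol and the membrane fraction also had times that did not overlap. GC content and the length of the mature transcript gave nuclear gradients whose times overlapped.

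The 10 largest falls by the naming rule (genes listed in all 48 libraries, ordered by the change without the low library) were led by Trim11, an E3 ubiquitin ligase of the tripartite motif family (chr11:58978093-58991458 in GRCm38, plus strand). Its nuclear ratio was 0.255, 0.550 and 0.503 at 30 min and 0.0530, 0.0475 and 0.0379 at 60 min. All 60 min libraries lay below all 30 min libraries, the low one included. The log2 change was -3.53 ± 0.33 (SE; limma, adjusted p = 0.031) without the low library and -3.18 with it (adjusted p = 0.12). Hnrnpk, which encodes an RNA-binding protein of the heterogeneous nuclear ribonucleoproteins (chr13:58391142-58403343, minus strand), was already at 0.0646, 0.212 and 0.236 at 30 min and reached 0.0160, 0.0159 and 0.0286 at 60 min. Its change was -3.52 ± 0.45 without the low library (limma, adjusted p = 0.032) and -2.93 with it (adjusted p = 0.15).

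Birc5, encoding survivin of the chromosomal passenger complex, went from 0.157, 0.372 and 0.376 to 0.0339, 0.0394 and 0.0463. Brd8, a bromodomain subunit of the NuA4/TIP60 acetyltransferase complex, went from 0.325, 0.748 and 0.651 to 0.0723, 0.0755 and 0.0832. Eif4a2, an RNA helicase of translation initiation, went from 0.139, 0.277 and 0.235 to 0.0416, 0.0408 and 0.0436. For these transcripts the 60 min libraries agreed closely and none overlapped with a 30 min library. Their changes without the low library were -3.24, -3.18 and -2.60 (limma, adjusted p = 0.031 each), and with it -2.82, -2.82 and -2.31.

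The rest of this group was less even. Dynll2, a light chain of cytoplasmic dynein, changed by -3.28 without the low library and -2.60 with it, with 60 min ratios that ranged from 0.0230 to 0.0873. Dmac2, an assembly factor of respiratory complex I, changed by -2.53 (-2.07 with the low library) and Tmem51os1, an antisense gene whose reads may include its partner's, by -2.58 (-1.90). Serpina3i changed by -2.95 (-2.12 with the low library), but it belongs to a cluster of near-identical serpin genes whose reads may be split between copies, and its low library, at 0.111, lay below 1 of the 60 min libraries, at 0.180. Iqcb1, a gene of the primary cilium, changed by -2.54 (-2.45 with the low library), and its ratio was identical to that of another gene in 4 of 6 libraries, as occurs where few reads are counted. Of the 1870 genes that fell, 4.81% had such shared values in 3 or more libraries, against 10.1% of all genes tested.

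The naming rule gave 9 genes for a rise, and the leading pair were long. Of the 37 rises 25 came from genes under 10 kb (0.379% of that bin) and 2 from genes over 150 kb (0.260%), against 0.239% of all genes. The share with all 60 min libraries above all 30 min ones was 2.17%, 0.662%, 0.935%, 3.50% and 3.12% from the shortest to the longest bin, against 1.71% of all genes. Usp15, a deubiquitinase (chr10:123105006-123196995, minus strand), had nuclear ratios of 0.387, 0.739 and 0.428 at 30 min and of 2.84, 3.33 and 3.59 at 60 min. It was below its starting level in every library at 30 min and above it in every library at 60 min, with a change of 2.53 ± 0.30 (SE; limma, adjusted p = 0.031) without the low library and 2.71 with it (adjusted p = 0.12). Tcf12, a basic helix-loop-helix transcription factor of the E protein family (chr9:71842688-72111871, minus strand), went from 0.651, 1.02 and 0.654 to 2.97, 2.63 and 2.77, a change of 1.77 ± 0.26 without the low library (limma, adjusted p = 0.035) and 1.88 with it (adjusted p = 0.12). At 120 min both were higher still, at 4.47 ± 0.55 (SD, n = 3) and 7.60 ± 1.47.

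Taf1, the largest subunit of the general transcription factor TFIID, went from 0.378, 0.757 and 0.577 to 1.86, 1.38 and 2.07. Zfp148, a zinc finger transcription factor, went from 0.680, 0.989 and 0.717 to 1.51, 1.76 and 1.89. Rnf217, a ubiquitin ligase, went from 0.676, 0.798 and 0.595 to 1.26, 1.77 and 1.80. In these 3 genes, which span 69.1, 124 and 116 kb, the times did not overlap, and their changes were 1.40, 1.02 and 1.2 without the low library and 1.67, 1.13 and 1.21 with it. Cavin4 and Pgam2, genes of muscle, rose by 1.17 and 0.92 (1.36 and 1.03 with the low library) from short loci of 9.99 and 2.09 kb. For Crygd, a lens crystallin, and Spag6l, a gene of the sperm flagellum, the low library lay at 0.974 and 1.17, within the range at 60 min, and their changes were 1.27 and 1.65 without it and 0.94 and 1.21 with it. Spag6l shared its ratio with another gene in 3 libraries.

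**Figure D3:**
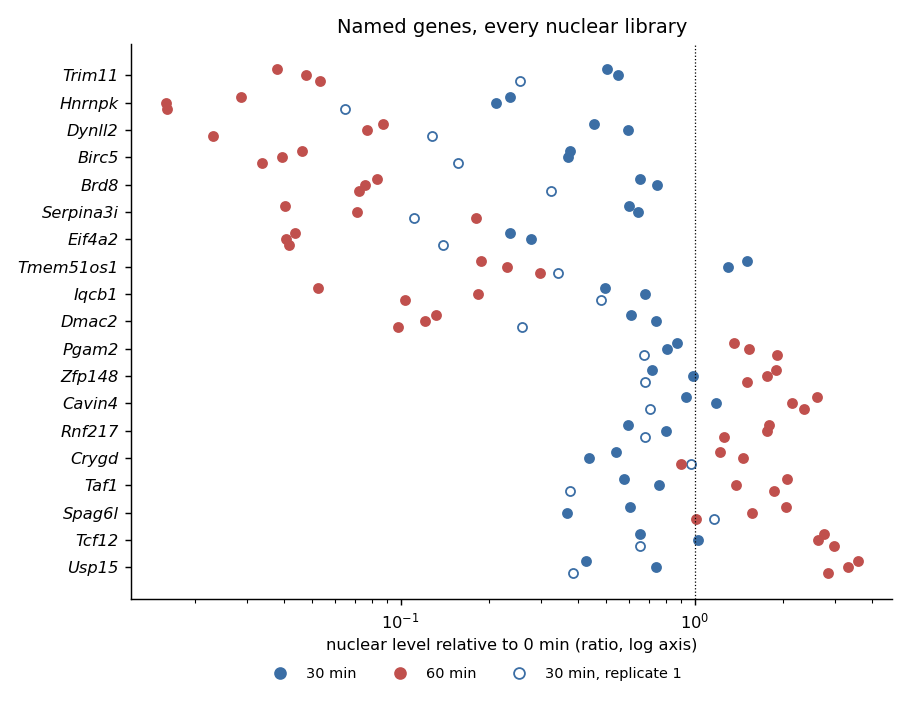
Nuclear ratio to 0 min of the 10 named falls (top) and 9 named rises (bottom), with every library as a point on a logarithmic axis. Blue is 30 min, red is 60 min and open circles are the low library. The falls end between 0.0159 (Hnrnpk) and 0.297 (Tmem51os1), the rises between 0.903 (Crygd) and 3.59 (Usp15).

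Nf1 and Tfrc are examples used by the study. Nf1, a negative regulator of Ras with a gene of 242 kb, had nuclear ratios of 0.722, 1.15 and 0.702 at 30 min and of 0.768, 0.807 and 1.06 at 60 min. Its times overlapped, and the change was 0.06 with all 6 libraries and -0.05 without the low one (limma, adjusted p = 0.94 and 0.92). Tfrc, encoding the transferrin receptor, with a gene of 23.9 kb, had 0.517, 0.928 and 0.651 and then 0.388, 0.441 and 0.505. Its times did not overlap, but its change of -0.81 ± 0.25 without the low library missed the threshold (limma, adjusted p = 0.078).

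Groups of genes were then described by the number of members called and by their median. Of all genes 12.1% fell, and 22.9% had all 60 min libraries below all 30 min ones. The median change of all genes was -0.31 with 6 libraries and -0.52 without the low one. For those also tested in other fractions it was -0.25 in total RNA and -0.15 in the cytosol. Immediate early genes, which serum and growth factors induce without new protein, had low ratios to 0 min. Of 30 tested, 13 fell (43.3%), none rose, and 20 (66.7%) had all 60 min libraries below all 30 min ones. Their median change was -1.17, and -1.44 without the low library. It was much the same in total RNA, which includes the nuclear RNA, at -1.16, and in the cytosol, at -1.13. Ier5l went from 0.218, 0.503 and 0.525 to 0.0314, 0.0585 and 0.0826. Ccn1, a secreted matrix protein, went from 0.155, 0.296 and 0.269 to 0.0291, 0.0322 and 0.0294, and Junb, a subunit of AP-1, from 0.221, 0.465 and 0.452 to 0.0639, 0.0867 and 0.0904. For these 3 genes no 60 min library overlapped with a 30 min library.

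Feedback genes of the signalling pathways active in these cells followed. Of 25 tested, 8 fell (32.0%) and 18 (72.0%) had all 60 min libraries below all 30 min ones. Their median change was -1.11 (-1.10 without the low library), and it was -0.94 in total RNA and -0.88 in the cytosol. Socs3, an inhibitor of LIF and STAT3 signalling, went from 0.196, 0.284 and 0.260 to 0.0653, 0.0646 and 0.0720. Hes1, a repressor downstream of Notch, went from 0.342, 0.586 and 0.440 to 0.0850, 0.127 and 0.160. Socs2 fell by 2.03 on the log2 scale without the low library, but its low value of 0.316 lay within the 60 min range of 0.213 to 0.367.

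Pluripotency factors were divided. Of 28 tested, 8 fell (28.6%, against 12.1% of all genes). All 60 min libraries lay below all 30 min ones for 12 of them (42.9%, against 22.9%). Their median change was -0.51 (-0.60 without the low library), against -0.31 and -0.52 for all genes. Zfp42 (Rex1) went from 0.298, 0.781 and 0.673 to 0.0972, 0.0999 and 0.0864. Esrrb, a nuclear receptor, was at 0.0321, 0.171 and 0.109 at 30 min and at 0.0260, 0.0154 and 0.0307 at 60 min, so that little of it was left at either time. Fgf4 fell by 2.11 on the log2 scale. Sox2, Gbx2, Klf2, Klf4 and Klf5 also fell. Pou5f1, Nanog and Tfcp2l1, picked after their values were seen, had changes of -0.02, -0.13 and 0.09 without the low library and did not pass the test.

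AU-rich elements in the 3′ UTR are known to shorten the life of mRNAs of this kind in the cytoplasm, so the annotated 3′ UTRs were searched for the letters TATTTAT on the sense strand. Of 10565 genes with a 3′ UTR, 28.9% held it. Among the 9 genes named from the last 3 groups it was found in Ccn1, Fgf4, Socs2 and Socs3, and not in Ier5l, Junb, Zfp42, Esrrb or Hes1. The first match of each is shown with its flanks, from GENCODE M21 transcripts on GRCm38, with the match in capitals.
Ccn1 (chr3:145647094-145647120, minus strand): aatgttttttTATTTATcaaagtgtag
Fgf4 (chr7:144863070-144863096, plus strand): gacgcccaatTATTTATaattttatgt
Socs2 (chr10:95412063-95412089, minus strand): accatgcttgTATTTATccctcgtctt
Socs3 (chr11:117966140-117966166, minus strand): tttgcacataTATTTATatttatactc
These are matches of letters and not measured binding sites. Over all genes with a 3′ UTR, those with the motif exceeded those without it in nuclear log2 ratio by 0.06 ± 0.05 (SD, n = 3) at 30 min and 0.07 ± 0.03 at 60 min, and the times overlapped. In total RNA the same difference was -0.09 ± 0.06 and -0.17 ± 0.05. The shorter letters ATTTA, held by 68.4% of 3′ UTRs, of which each TATTTAT contains a match, and the Pumilio motif TGTANATA, held by 25.3%, gave nuclear differences of 0.14 and 0.09 at 30 min and 0.23 and 0.15 at 60 min, again with overlapping times.

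Noncoding transcripts that host small nucleolar RNAs in their introns, and miRNA hosts listed with them, had the lowest ratios to 0 min of the lists examined. The median log2 ratio of the 13 tested was -3.27, -2.69 and -3.08 at 30 min and -5.06, -4.82 and -4.87 at 60 min, a median change of -1.24 (-1.33 without the low library). The median ratio was below those at 30 min in every 60 min library. Of the 13, 3 fell (23.1%, against 12.1% of all genes) and 8 had all 60 min libraries below all 30 min ones (61.5%, against 22.9%). Their median change was -0.77 in total RNA and -0.43 in the cytosol. Gas5 went from 0.104, 0.264 and 0.151 to 0.0138, 0.0184 and 0.0244. Snhg6 and Mir17hg, the host of a miRNA cluster, also fell, with changes of -2.54 and -2.25 in log2 ratio. Of 26 long noncoding RNAs of the nucleus, 6 fell (23.1%, against 12.1% of all genes), with a median of -0.42 (-0.66 without the low library). The share with all 60 min libraries below all 30 min ones was 23.1%, near the 22.9% of all genes. Malat1, an abundant RNA of nuclear speckles, went from 0.3005, 1.14 and 0.854 to 0.344, 0.140 and 0.168, and the low library overlapped with the 60 min range.

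Of 264 numbered Zfp genes tested, which encode zinc finger proteins, 97 fell (36.7%) and 1 (Zfp148) rose. All 60 min libraries lay below all 30 min ones for 153 of them (58.0%, against 22.9% of all genes). Their median change was -0.77, and -0.99 without the low library. In total RNA it was -0.80 and in the cytosol -0.68. Zfp414 went from 0.479, 0.678 and 0.494 to 0.0518, 0.0458 and 0.0523, with values shared with another gene in 4 libraries. Zfp426 went from 0.144, 0.965 and 0.885 to 0.0975, 0.155 and 0.158.

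Genes of RNA processing themselves had median changes near that of all genes, but larger shares without overlap between the times. Of 33 SR proteins and their kinases, 6 fell (18.2%, against 12.1% of all genes), with a median of -0.46 (-0.60 without the low library). Of the 33, 39.4% had all 60 min libraries below all 30 min ones, against 22.9% of all genes. Rsrc2 went from 0.934, 2.12 and 1.495 to 0.580, 0.653 and 0.754, and Scaf4 from 0.504, 0.792 and 0.674 to 0.141, 0.286 and 0.224. Srrm2 fell without the low library, by 1.93 on the log2 scale, and with it had a change of -0.46 (limma, adjusted p = 0.87). Of 31 hnRNP genes, 4 fell (12.9%), with a median of -0.35 (-0.50 without the low library). Of the 31, 38.7% had all 60 min libraries below all 30 min ones. Among those that fell were Hnrnph2, by 3.91 on the log2 scale, and Hnrnpa2b1, which went from 0.401, 0.625 and 0.459 to 0.126, 0.133 and 0.115. Of 20 cleavage and polyadenylation factors, 4 fell (20.0%), with a median of -0.34 (-0.56 without the low library). Of the 20, 30.0% had all 60 min libraries below all 30 min ones. Fip1l1, a subunit of the cleavage and polyadenylation specificity factor, went from 0.611, 1.92 and 1.49 to 0.220, 0.0650 and 0.0742, and Rbbp6 and Scaf1 also fell, with log2 changes of -1.92 and -1.83.

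Transcripts that encode the machinery moving and removing nuclear RNA fell at shares not far from the 12.1% of all genes. Of 29 mRNA export factors 2 fell, Cetn2 and Nxt1, the latter a cofactor of the export receptor Nxf1, and their ratios were identical to those of another gene in 4 and 3 libraries. Of 25 nucleoporins 2 fell, Nupl2 and Nup35, and of 23 nuclear RNA decay factors 2 fell, the exosome subunits Exosc1 and Exosc8. Of 30 genes on a list of P-TEFb and elongation factors 2 fell. They were Ccnt2, a cyclin partner of CDK9, and Brd8, which is on the list but belongs to the NuA4/TIP60 complex. The medians of these 4 groups were -0.21, -0.13, -0.22 and -0.23, and -0.32, -0.36, -0.49 and -0.35 without the low library. Among 36 mitotic regulators 2 fell, Pttg1 (securin) and Birc5, and among 18 targets of p53 3 fell, Cdkn1a (p21), Fas and Sesn1. Cdkn1a had 0.323, 0.365 and 0.362 at 30 min and 0.167, 0.127 and 0.170 at 60 min, and here the low library lay close to its fellows. Sesn1, at 0.326 in the low library and at 1.33 and 1.301 in the others, had a change of -0.27 with all 6 (limma, adjusted p = 0.84).

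Ribosomal protein, proteasome and respiratory chain genes had medians near 0. The authors scaled the libraries on genes with long half-lives, which sets such genes near 0. Whether members of these lists were among the reference genes was not tested. Among 66 cytosolic ribosomal protein genes 3 fell (Rps15a, Rpl13 and Rps28), and the median change was -0.02 (0.01 without the low library). Among 31 proteasome subunits 1 fell, Psmd4, and the median was 0.01 in both. Among 86 genes of the respiratory chain 2 fell, Cox17 and Ndufaf6 (median -0.04, and -0.07 without the low library), and among 66 mitochondrial ribosomal protein genes 3 fell, Mrps17, Mrpl24 and Mrpl57 (median -0.22, and -0.26 without the low library). Of these last, 24 had all 60 min libraries below all 30 min ones (36.4%, against 22.9% of all genes). The low library did not stand apart in the proteasome group, with a median log2 ratio of 0.06 against 0.11 and 0.06 in its fellows. Ribosomal protein genes have many processed pseudogenes that can share reads with them.

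Of 29 genes on a list of long genes 1 fell, Magi1, and 1 rose, Tcf12, with a median of 0.17 (-0.07 without the low library). Of 20 replication-dependent histone genes, whose mRNAs normally lack a poly(A) tail, 2 fell, Hist1h3b and Hist1h4k. Their values were shared with other genes in all 6 libraries and these near-identical copies may share reads, so they remain uncertain. No marker of feeder cells (3 tested) or of primitive endoderm (5 tested) and none of the 7 mRNAs encoded by mitochondria passed the test.

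**Figure D4:**
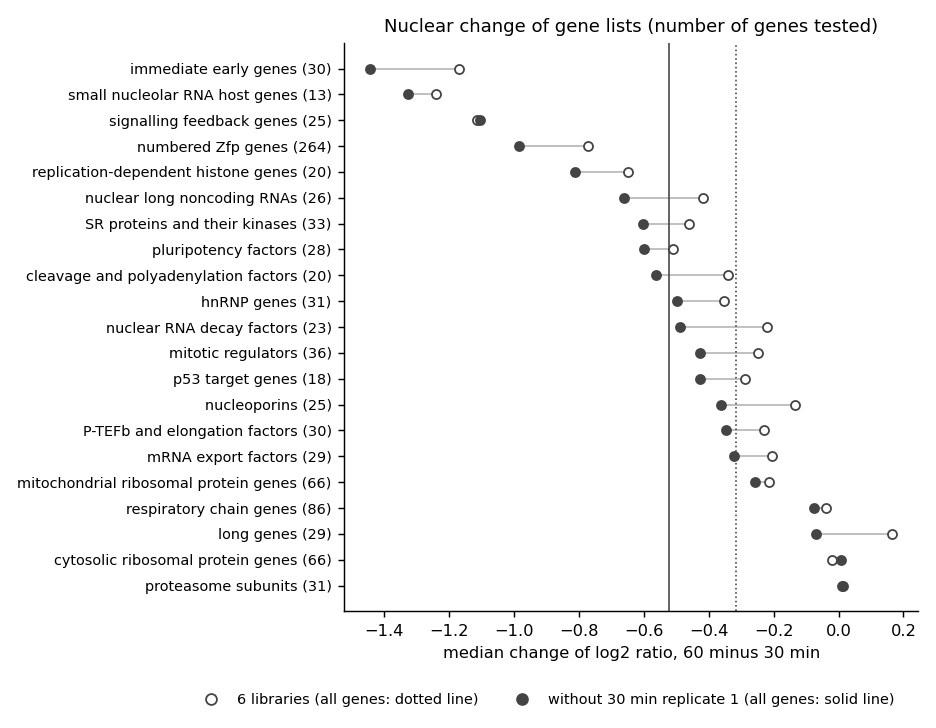
Median change of the log2 ratio from 30 to 60 min in the nucleus for the lists with 10 or more genes tested, with the number tested in brackets. Open circles are all 6 libraries and filled circles leave out the low library, with the median of all genes as a dotted (-0.31) and a solid (-0.52) line. Immediate early genes, hosts of small nucleolar RNAs, feedback genes and numbered Zfp genes lie below both lines and ribosomal protein and proteasome genes lie near 0.

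The nuclear change was finally set against that in the whole cell and in the cytosol, the compartment that receives exported mRNA. Against total RNA, limma found 0 of 13617 genes (0%) whose change differed in either direction, with all libraries and without the low one. At an unadjusted p under 0.05 the nuclear change was lower for 470 genes and higher for 215 (1730 and 172 without the low library). Against the cytosol 0 of 12705 genes (0%) differed with all libraries, and 865 were lower and 183 higher at an unadjusted p under 0.05. Without the low library the change was lower in the nucleus for 200 genes (1.57%) and higher for 8 (0.063%). This balance depended on scaling, since 83 were lower and 105 higher once libraries were also centred on their median.

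Genes of this kind were named after their values were seen, since none passed with all libraries. Malat1 changed by -2.30 ± 0.45 (SE) in the nucleus and by 0.49 in the cytosol, a difference of -2.79 ± 0.53 (limma, adjusted p = 0.041 without the low library). In total RNA it went from 1.05 ± 0.13 (SD, n = 3) to 1.23 ± 0.21. In membranes it went from 1.17 ± 0.21 to 2.19 ± 0.36 (limma, adjusted p = 0.030). Its change in total RNA did not pass the test (limma, adjusted p = 0.42). With all 6 nuclear libraries its nuclear change was -1.73 and did not pass either (limma, adjusted p = 0.23). The part of leakage between fractions was not tested. Trmt1, a tRNA methyltransferase, went from 0.632, 1.34 and 0.767 to 0.522, 0.498 and 0.487 in the nucleus while it went from 0.988 ± 0.059 (SD, n = 3) to 2.62 ± 0.195 in the cytosol. The difference was -2.42 ± 0.27 (limma, adjusted p = 0.026). Its nuclear change alone missed the threshold without the low library (limma, adjusted p = 0.064). Trmt1 went from 0.616 ± 0.15 to 0.480 ± 0.22 in total RNA and from 0.814 ± 0.46 to 0.907 ± 0.86 in membranes. Plvap, Tha1 and Cbx7, the last a Polycomb protein, differed by -2.80, -2.68 and -2.51, and the values of Plvap were shared with another gene in 3 libraries. In the other direction, Usp15 stayed level in the cytosol, at 0.962 ± 0.12 and 1.03 ± 0.29, and its change differed by 2.46 ± 0.37 (limma, adjusted p = 0.026). Usp15 went from 0.826 ± 0.17 to 1.43 ± 0.34 in total RNA and from 0.659 ± 0.065 to 1.14 ± 0.21 in membranes. Rnf217 and Ppp2r5e, a regulatory subunit of protein phosphatase 2A, differed by 1.73 and 1.11. Ppp2r5e went from 1.05, 1.41 and 1.29 to 2.65, 2.52 and 3.07 in the nucleus and from 0.880 ± 0.060 to 0.830 ± 0.072 in the cytosol. Arhgap27os1, an antisense gene, also differed, by 1.12, with a change of -0.71 in the cytosol. Its nuclear change did not pass, at 0.40 without the low library (limma, adjusted p = 0.25) and 0.09 with it.

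The genes called in the nucleus were also looked up in the cytosol. Of the 1438 genes that fell in the nucleus and were listed in all fractions at both times, 15.8% were higher in the cytosol at 60 than at 30 min, against 27.0% of all 12082 such genes. Their median cytosolic change was -0.38 against -0.15, and their median change in total RNA was -0.52 against -0.25. Of 17 such genes that rose in the nucleus, 41.2% were higher in the cytosol, with a median of -0.09. In total RNA 82.4% of the 17 were higher, with a median of 0.44, against 15.4% of all such genes. In the membrane fraction 58.8% of the 17 were higher, with a median of 0.12, against 18.8%. Total RNA includes the nuclear RNA, so its values do not show whether these genes rose outside the nucleus. These shares are descriptions across genes, which are not independent replicates.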

How the data were processed

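Polyadenylated RNA of 6 nuclear libraries (3 at 30 and 3 at 60 min) was analysed, with the libraries of the other fractions beside them. Reads were, per the labels, aligned by the authors to mm10 (STAR 2.7.6) and quantified (RSEM 1.3.3). The authors then scaled libraries on genes with long half-lives and deposited, for each gene, the ratio to its 0 min level. Genes at 0 are not listed, so a transcript that vanished is missing. The scaling takes the reference genes as unchanged and sets the direction of small changes. The depth is unknown.

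Groups came from the sample titles. Log2 ratios, with no pseudocount, went into linear models (limma 3.58.1, R 4.3.3) on genes listed in all libraries compared, and differences between fractions with an interaction term. Variances were moderated with a trend over the mean log2 ratio of each gene, which is not an expression level. Tests were two-sided, at an adjusted p (Benjamini-Hochberg) under 0.05. Single values per library were compared by exact permutation. The growth of the length gap was compared between fractions in the same way, on differences between libraries of the same replicate number. The fits were tested on simulated data. Gene positions, lengths, exons and 3′ UTRs came from GENCODE M21 (GRCm38), which held 23786 of 23862 genes and lacked 43 of those tested. Alternatives covered pseudocounts, filters, scaling, left-out libraries, replicate blocks and variance models.

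Named genes were the 10 largest falls and rises past the threshold, listed in all 48 libraries and skipping predicted genes, filled from the fit without the low library where the main fit gave none, plus Nf1, Tfrc, up to 4 members of each list, and up to 5 genes per direction of the comparison with the cytosol. List members without a call are mostly given as counts. The comparison, the lists and the rules were chosen with earlier results of these data known.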

Additional observations from a re-analysis of the deposited data

Results flagged for a closer look

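Without the low nuclear library (replicate 1 at 30 min), the change from 30 to 60 min differed between nucleus and cytosol by a test of the difference itself, being lower in the nucleus for 200 genes and higher for 8. With all libraries no gene passed that test.

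The gap in median log2 ratio between genes over 150 kb and under 10 kb grew from 30 to 60 min in the nucleus in each replicate number (0.32, 0.26 and 0.40) and shrank in total RNA in each (-0.03, -0.01 and -0.03), a difference of 0.35. The exact permutation p was 0.1, which is the smallest that 3 against 3 can give. The shrinkage in total RNA depended on the genes taken. There the mean gap was larger at 60 min by 0.0094 among protein-coding genes and by 0.07 in genes of low GC content. Whether the replicate numbers pair the libraries is not known. Groups of 3 libraries are too small to be searched for outlying samples by a formal rule.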

How the results depend on the processing

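The number of genes called was the result that depended most on the processing. From 0 lower and 0 higher with all 6 libraries it went to 24 and 7 with libraries centred on the median gene, 33 and 8 with libraries scaled to the same total, 3662 and 153 with array weights, 291 and 27 with all 12 nuclear libraries in one fit, and 1 lower with limma without trend. Without the low library it was 1870 and 37, which rose to 3106 and 38 among genes listed in all 48 libraries and to 3446 and 61 with 11 nuclear libraries in one fit (both added after seeing the data). Leaving out single libraries or replicate numbers gave 0 to 1870 lower and 0 to 37 higher. In the difference from total RNA, array weights gave 15 lower and 4 higher, and centring without the low library 1 higher. In the difference from the cytosol, centring gave 11 and 15, the same total 24 and 13, mt-encoded scaling 3 higher, the looser listing filter 1 lower, array weights 410 and 30, centring without the low library 83 and 105, genes listed in all 48 libraries without the low library 384 and 11, and leaving out libraries or replicate numbers 0 to 200 and 0 to 8. Deviations of nuclear libraries with the same replicate number did not correlate (r = -0.07, -0.01 and -0.04). These are deviations from means of 3 libraries, which at 30 min include the low library. They therefore cannot show whether the numbers pair the libraries. The fit with the replicate block called 0 and 0 genes in the nucleus, and with centring it gave 3 lower and 2 higher against the cytosol. The median change of -0.33 became 0 with centring, with and without the low library, by construction. The growth of the length gap (0.33) was 0.12 with a pseudocount of 1, 0.21 within 2 to 5 exons, 0.42 within 6 to 15, 0.62 over 15 and 0.40 in protein-coding genes, and 0.28 to 0.36 under the others. The cause of these shifts was not tested. Of the recomputed list medians, 45 moved by more than the spread between replicates and 387 did not.

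Changes turned sign in 4 of the genes named. Nf1 (0.06) was -0.094 with mt-encoded scaling, -0.048 without the low library (the same in one fit of 11 libraries and among genes listed in all 48), and -0.40 to 0.34 over all settings that left out 1 or 2 libraries or a replicate number. Sesn1 (-0.27) was 0.059 with centring, with and without the replicate block, and -1.04 to 0.13 when libraries were left out. Srrm2 (-0.46) was -2.04 to 0.40 and Arhgap27os1 (0.09) -0.23 to 0.52 when libraries were left out, and Arhgap27os1 was -0.065 with mt-encoded scaling. The alternatives were run for the genes chosen by the naming rule, and the others of these kept their direction. Pou5f1, Nanog and Tfcp2l1 were not among them.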
